A study of Mus musculus with 12 samples.

Results

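The 10 genes described here are the annexins Anxa1, Anxa2, Anxa3, Anxa4, Anxa5, Anxa6, Anxa7 and Anxa11 and the S100 genes S100a10 and S100a11, whose proteins bind annexins. They were taken by symbol, and all 10 were found among the 13267 genes of the liver table and among the 12720 tested. The set was chosen by the differences between the treatment groups in these same livers, that is, with the normalised read counts of both groups already known. Those differences are therefore given as a description, and counts of members past a threshold stand beside the same counts over all genes with nothing read from them. The tests reported are of relations between genes within the groups. The livers came from 12 C57BL/6 mice in which a high-fat diet (HFD) had induced obesity and a fatty liver. In 6 mice, labelled Scaffold Control, the material implanted under the skin was scaffold alone, and in the other 6 it delivered 4-hydroxyphenylacetic acid (4-HPAA), a phenolic acid that gut bacteria make from dietary polyphenols. Treatment lasted 6 weeks, after which the livers were flushed and frozen. The labels give no sex, age or lean control, so all groups compared share the diet. The libraries are numbered but not tied to animals, and each is taken as 1 mouse, so a p-value reflects how these libraries vary.

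Annexins are cytosolic proteins that dock onto acidic phospholipids of membranes when calcium rises. They take part in membrane repair, in traffic of vesicles and in anchoring membranes to actin. S100 proteins are small dimers with EF-hand loops, and several of them clamp the free N-terminal tails of annexins, joining annexin molecules into complexes that can bridge membranes. The best known complex is that of annexin A2 with S100A10, which also gathers plasminogen and its activator on the cell surface, while annexin A1 pairs with S100A11. In liver, annexins A1 and A2 are generally low in hepatocytes and higher in duct, mesenchymal, endothelial and immune cells.

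All values are normalised read counts, that is, counts the authors scaled between libraries. They summed to 22869813 to 25255447 per library, with an estimated 22388924 to 26929205 reads behind them. On the second principal component of the 12720 genes, 4-HPAA replicate 3 stood apart at −56.45, while all other livers lay between −7.52 and 17.03. Results are therefore given with and without it where they rest on it. The 9 hepatocyte markers summed to 2533047 to 3010597 in control and 2094220 to 2778967 in 4-HPAA livers. Alb, the albumin gene, made up most of that sum and had a log2 difference of −0.38 ± 0.10 (SE). Of the 9 markers 4 had negative and 5 positive differences, against 50.2% of all genes tested negative. The mean log2 deviation of the 9 from their control means averaged 0.04 over the 4-HPAA livers, so the lower sum was not shared by all of them.

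Anxa2 had the largest difference between the groups of the 10 genes with all libraries, and its partner S100a10 was displaced less. Anxa2 (ENSMUSG00000032231, chr9:69453620-69491795, plus strand, GRCm38) had a lowest value of 318, a median of 431.0 and a highest of 1087 in control livers. In 4-HPAA livers it had a lowest value of 182, a median of 242.5 and a highest of 460. All 6 4-HPAA mice lay below the control mean and 4 lay below the lowest control. The groups overlapped, because 4-HPAA replicates 3 and 4, at 460 and 326, reached into the control range. The means were 572 ± 314 and 273 ± 106 (SD, n = 6 each), and the log2 difference, 4-HPAA minus control on the scale of log2(value + 1), was −0.98 ± 0.32 (SE). Control replicates 4 and 5, at 824 and 1087, carried much of the control spread. The difference was −0.76 without control replicate 5, when that of Anxa1, at −0.89, was the largest of the 10, and it was −1.15 without 4-HPAA replicate 3. In bulk liver, fewer cells of a type and less RNA per cell cannot be told apart.

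S100a10 encodes the S100 partner that binds the annexin A2 tail and has lost the ability to bind calcium. The gene lies at chr3:93555080-93564643 on the plus strand. Control livers held 1162 at the lowest, 1581.0 at the median and 2295 at the highest, and 4-HPAA livers held 920, 1202.0 and 1933. The groups overlapped widely, with 3 of 6 4-HPAA mice below the lowest control and 4-HPAA replicate 3, at 1933, above all controls but replicate 5. The log2 difference was −0.36 ± 0.19 (SE), and it ranged from −0.49 without that mouse to −0.26 without control replicate 5. Per kilobase of transcript, the level of S100a10 was 4.46 to 9.15 times that of Anxa2 in control mice and 8.88 to 11.4 times in 4-HPAA mice. These ranges met only at control replicate 1, and the ratio was lowest, at 4.51 and 4.46, in control replicates 4 and 5, the mice with most Anxa2.

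Anxa1 was the member whose groups did not overlap. Annexin A1 is induced by glucocorticoids and acts through formyl peptide receptors to dampen leukocyte recruitment. Its gene (ENSMUSG00000024659) lies at chr19:20373428-20390944 on the minus strand. Values ran from 103 through a median of 118.0 to 162 in control livers and from 51 through 61.0 to 100 in 4-HPAA livers. The highest 4-HPAA mouse, replicate 4 at 100, was just under the lowest control, replicate 1 at 103. The means were 123 ± 21.3 and 66.8 ± 17.9 (SD, n = 6 each). The log2 difference was −0.89 ± 0.17 (SE), and it lay between −1.01 and −0.81 with any 1 library left out. Of all genes tested, 0.354% had every 4-HPAA mouse below every control mouse, and 0.307% had every 4-HPAA mouse above every control mouse, which was so for 0 members. Since the choice of members used this contrast, nothing is read from that count.

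S100a11, whose protein binds the tails of annexins A1 and A2, was also at a low level. Control livers held 80, 131.5 and 204 (lowest, median and highest) and 4-HPAA livers 45, 74.0 and 138. Here 4 of 6 4-HPAA mice lay below the lowest control, and replicates 3 and 4, at 103 and 138, lay inside the control range. The log2 difference was −0.70 ± 0.27 (SE), and it was −0.78 without 4-HPAA replicate 3 and ranged from −0.86 to −0.54 with any 1 library left out. S100a11 lies at chr3:93520488-93526287, in the same stretch of chromosome 3 as S100a10 and on the same strand.

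Anxa3 and Anxa5 had intermediate differences. Anxa3 encodes an annexin known from granule membranes of neutrophils. It ran from 79 through a median of 95 to 115 in control livers and from 55 through 68.5 to 81 in 4-HPAA livers, a log2 difference of −0.50 ± 0.13 (SE). The overlap came from control replicate 1 at 79 and 4-HPAA replicate 5 at 81. Anxa5 encodes the annexin that binds exposed phosphatidylserine and is used as a stain for dying cells. It ran from 1445 through 2099.0 to 3258 in control livers and from 1289 through 1467.5 to 2042 in 4-HPAA livers, a log2 difference of −0.42 ± 0.18 (SE). All 6 4-HPAA mice lay below the control mean of Anxa5, and control replicate 5, at 3258, was its highest mouse, as it was for Anxa2, S100a10 and S100a11.

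The remaining annexins differed little. Anxa4, an annexin of epithelial membranes, averaged 1482 ± 62.0 in control and 1408 ± 114 in 4-HPAA livers (SD, n = 6 each), with 3 of 6 4-HPAA mice below the lowest control. Anxa6, the largest annexin, which carries a duplicated core and is found on late endosomes, averaged 3195 ± 320.4 and 2989 ± 264. Anxa7, which binds the calcium sensors sorcin and ALG-2, averaged 3309 ± 286 and 2949 ± 254. The log2 differences of these genes were −0.08 ± 0.07, −0.09 ± 0.08 and −0.17 ± 0.08 (SE). Anxa11, whose protein binds ALG-2 and S100A6, was the member with a positive difference. It ran from 376 through 460.5 to 496 in control livers and from 423 through 502.0 to 549 in 4-HPAA livers, a log2 difference of 0.14 ± 0.09 (SE), and 3 of 6 4-HPAA mice lay above the highest control. An antisense gene, Anxa11os, overlaps Anxa11, and Gm16144, 1500015L24Rik and Gm44036 overlap Anxa2, Anxa1 and Anxa4 on the other strand. On the same strand Gm42603 overlaps Anxa3, and the microRNA genes Mir3109 and Mir7009 overlap Anxa2 and Anxa5. The strand setting of the read counter was not at hand, so reads of the genes on the other strand cannot be told apart. For those on the same strand no strand setting would do so.

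**Figure D1:**
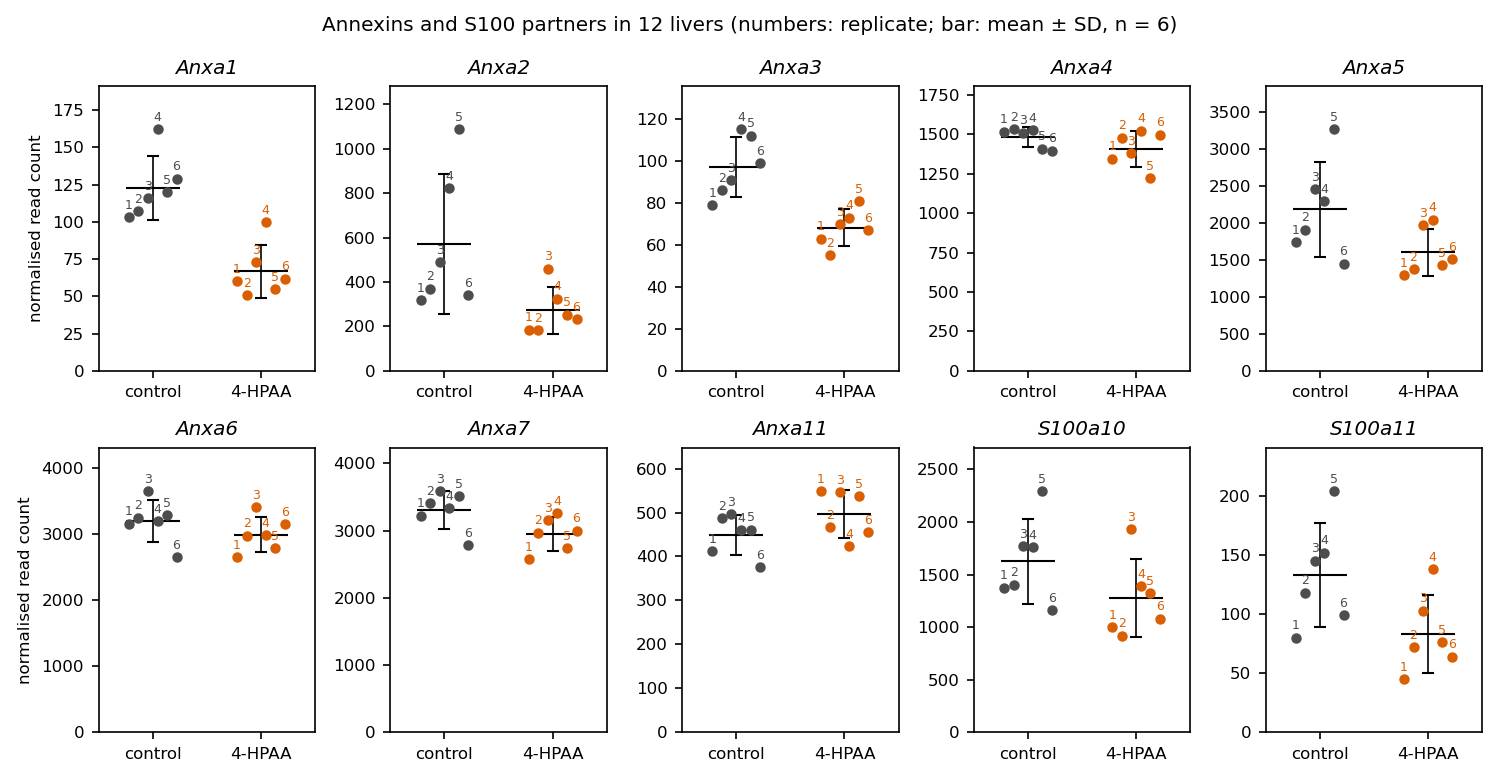
Normalised read counts of the 10 genes (vertical axes, linear from 0) in the 6 control and 6 4-HPAA livers, with each point 1 mouse numbered by replicate and the bar its group's mean ± SD. The 4-HPAA points of Anxa1, 51 to 100, all sit below the control points, 103 to 162, while for Anxa4 and Anxa6 the groups lie over each other.

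As a set, 9 of 10 members had a negative log2 difference, against 50.2% of all genes tested, and the median difference was −0.39 against −0.001 over all genes. With limma, 0 of the 10 members and 0 of 12720 genes (0.0%) had a Benjamini-Hochberg adjusted p under 0.05. At an unadjusted p under 0.05, 5 members were lower (Anxa1, Anxa2, Anxa3, Anxa5 and S100a11) and 0 were higher, against 7.56% of all genes tested lower and 7.26% higher. Because the members were chosen with this contrast known, nothing is read from these counts. The count of 5 was 3 without control replicate 5, and the full range was 3 to 7 with 1 library left out. The count of members with an adjusted p under 0.05 was 1, Anxa1, without 4-HPAA replicate 4, when 193 genes of the whole table passed, and it was also 1, again Anxa1, with array weights. The count over the table was 5 without control replicate 1, none of them a member, and 0 without 4-HPAA replicate 3. The sign of each member's difference was the same under all alternatives fitted.

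**Figure D2:**
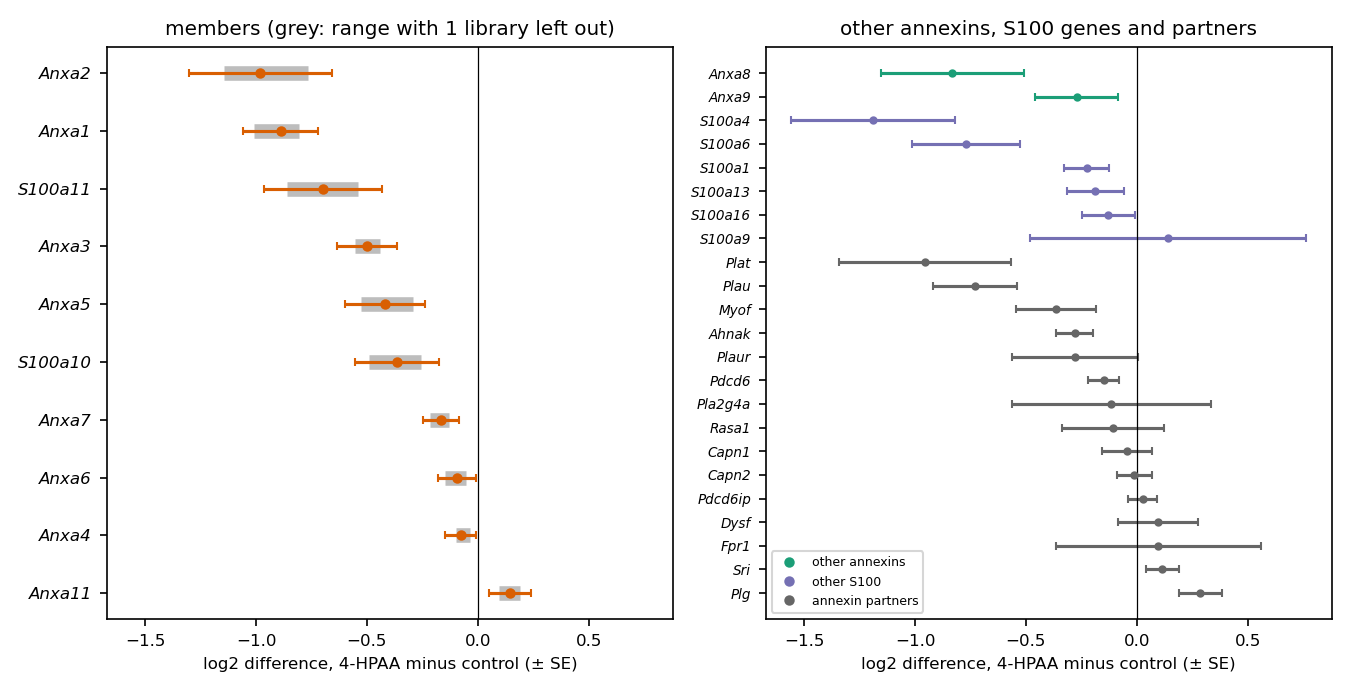
Log2 differences, 4-HPAA minus control, with SE (horizontal axis), for the 10 members on the left, where grey bars give the range with 1 library left out, and for other annexins, other S100 genes and annexin partners on the right. Members run from Anxa2 at −0.98 to Anxa11 at 0.14, and on the right Plg, at 0.29, is the highest.

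Start regions of members that lay lower can be set beside that of a member that differed little, since their letters were not used to choose the genes. RefSeq's table for GRCm38.p6 holds start regions for 7 of the 10 members, and the 250 bases before each start were searched. Shown are the bases that also lie outside the GENCODE M21 gene, for Anxa2 (chr9:69453433-69453619, plus strand) and S100a11 (chr3:93520246-93520487, plus strand), whose values moved together across mice, and for Anxa4 (chr6:86793585-86793834, minus strand). Capitals mark matches, on either strand, to the AP-1 site TGANTCA, the GC box GGGCGG and the classical kappa-B site of NF-kB. The TATA box TATAAA was searched too.
Anxa2: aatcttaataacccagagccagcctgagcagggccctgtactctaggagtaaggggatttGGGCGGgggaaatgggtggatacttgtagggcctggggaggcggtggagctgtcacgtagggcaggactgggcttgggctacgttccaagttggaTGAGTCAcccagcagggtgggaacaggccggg
S100a11: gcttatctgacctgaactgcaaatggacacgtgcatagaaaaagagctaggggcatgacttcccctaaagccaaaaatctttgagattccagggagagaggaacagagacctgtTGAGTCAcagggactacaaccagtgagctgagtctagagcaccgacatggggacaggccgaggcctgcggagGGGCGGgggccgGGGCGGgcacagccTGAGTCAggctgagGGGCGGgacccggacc
Anxa4: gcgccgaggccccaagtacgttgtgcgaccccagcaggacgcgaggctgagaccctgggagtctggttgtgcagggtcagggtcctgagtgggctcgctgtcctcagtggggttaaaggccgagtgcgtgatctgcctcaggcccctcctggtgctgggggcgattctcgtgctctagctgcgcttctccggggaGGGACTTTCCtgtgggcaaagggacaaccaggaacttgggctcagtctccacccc
Anxa2 held the AP-1 letters once, starting 95 bases before the RefSeq start, and of its 3 GC boxes 1 lies in the stretch shown. A TATA box 17 bases before the start lies inside the GENCODE gene. S100a11 held the AP-1 letters at 2 places, 136 and 38 bases before the start, and 3 GC boxes. Anxa4 held only the NF-kB letters, and Anxa1 (not shown, since its window lies inside the GENCODE gene) only a TATA box, 32 bases before the start. AP-1 letters occur in 6.73% of all 32536 such windows, TATA boxes in 12.3%, GC boxes in 33.0% and the NF-kB letters in 0.141%. The windows of Anxa5, Anxa7 and Anxa11 held no AP-1 letters. Anxa5 also lay lower and had an r of 0.885 with Anxa2 and 0.878 with S100a11, yet its window held none of the 4 motifs. GC boxes were also found in members that differed little: 1 and 4 in the 2 windows of Anxa7 and 3 in that of Anxa11. A second RefSeq start of Anxa4 had no match. The letters thus did not follow the differences or the shared variation throughout. A match describes letters and does not show that a factor binds there, and the lack of one says nothing about the factor.

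Partner genes were compared across mice after each group's mean was removed, which sets aside the contrast the genes were chosen with. Of 5 pairs whose proteins are known to bind, Anxa2 and S100a10 varied together most closely over the 12 mice, with Pearson's r = 0.913 (permutation test within groups, two-sided, p = 2e-05, Benjamini-Hochberg adjusted p = 0.0001) and Spearman's rho = 0.909 (permutation p = 0.00013). Within the groups r was 0.907 in the 6 control and 0.978 in the 6 4-HPAA mice. Leaving out control replicate 5 and 4-HPAA replicate 3, the mice farthest from the median of Anxa2, r was 0.822 over 10 mice. In words, the mouse with most Anxa2 in each group, control replicate 5 and 4-HPAA replicate 3, was also the mouse with most S100a10.

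Anxa2 and S100a11 also varied together, with r = 0.826 (permutation p = 0.0013, adjusted p = 0.00325) and rho = 0.881 (permutation p = 0.00051), r = 0.772 without the same 2 mice, and r of 0.923 and 0.763 within control and 4-HPAA. The named partner pair Anxa1 and S100a11 did not pass, at r = 0.624 (permutation p = 0.0467, adjusted p = 0.0778) and rho = 0.594 (permutation p = 0.0602), and r was 0.371 without control replicate 4 and 4-HPAA replicate 4. It passed without control replicate 5 (r = 0.711, adjusted p = 0.048, permutation test) and, with 1 library left out, its r ranged from 0.396 to 0.711. Anxa6 and S100a11 had r = 0.498 (permutation p = 0.115, adjusted p = 0.144) and rho = 0.559 (permutation p = 0.0755), with r = 0.491 without control replicates 3 and 6, and this pair passed under other scalings of the libraries. Anxa11 and S100a6 had r = 0.286 (permutation p = 0.403, adjusted p = 0.403) and rho = 0.329 (permutation p = 0.32), with r = 0.353 without control replicate 6 and 4-HPAA replicate 4. Whether the pairs differ from each other in r was not tested. Each test is against an r of 0, so it does not show that partners varied together more closely than other genes.

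As a description over all 45 pairs of members, 39 had a positive r after group means were removed, with a median of 0.477. Anxa2, Anxa5, S100a10 and S100a11 had values of 0.772 to 0.913 with each other. Anxa6 and Anxa7 had 0.883. Anxa4 and Anxa3 had the lowest value, −0.44, and Anxa4 had values between −0.44 and 0.57 with the other members. All these values come from the same 12 libraries and so share depth and scaling. Outside the members, the tested genes most like Anxa2 by the same measure over 12 mice were Gga2, a Golgi clathrin adaptor (r = 0.943), Psd4, an exchange factor for ARF6 (0.934), Wfdc2, a secreted protein with whey acidic domains (0.926), Srxn1, the sulfiredoxin of antioxidant defence (0.924), and Col3a1, of type III collagen and 1 of the stellate and fibroblast markers below (0.916). These 5 values were all above the 0.913 of S100a10, so a high r with Anxa2 was not confined to its partners. Control replicate 5 was the highest control in all 5, from 232 for Psd4 to 1668 for Col3a1.

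**Figure D3:**
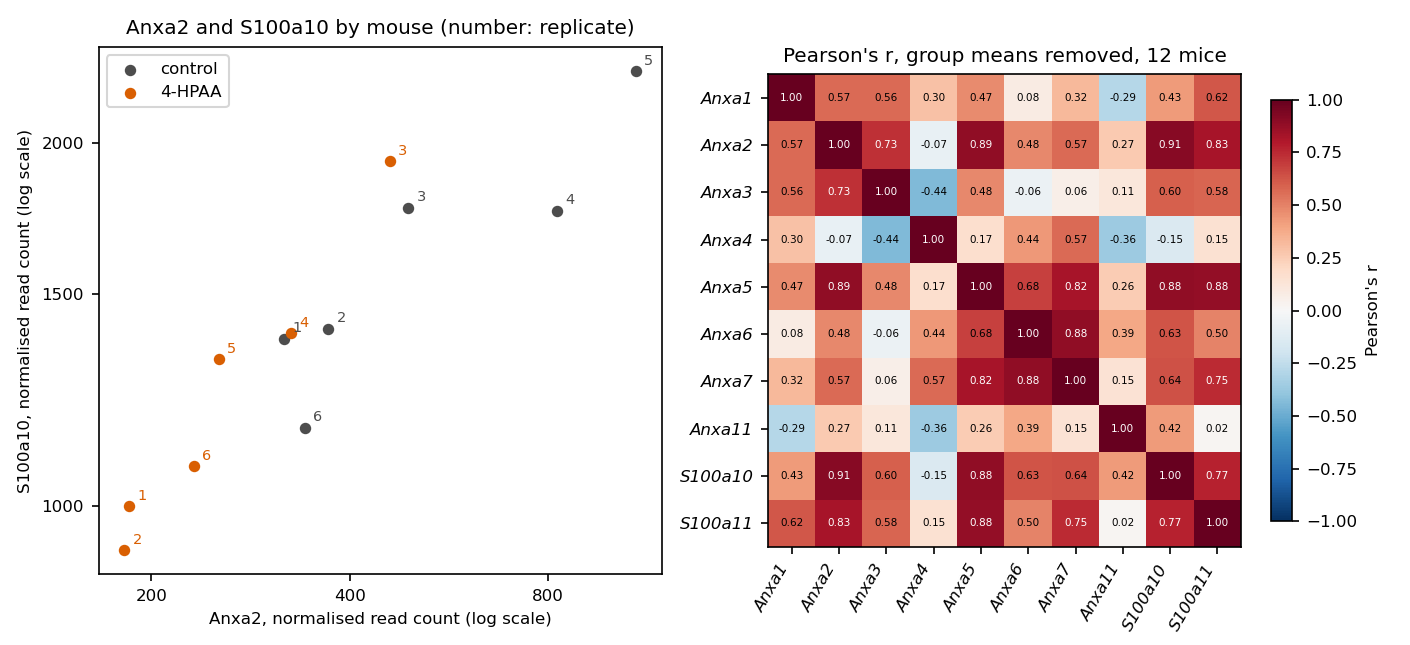
On the left, normalised read counts of S100a10 against Anxa2 (both axes logarithmic), with each point 1 mouse numbered by replicate, and on the right Pearson's r between members over 12 mice after group means were removed. Control replicate 5 lies at the top right and 4-HPAA replicates 1 and 2 at the bottom left, and the matrix is highest for Anxa2 with S100a10 at 0.91.

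Levels of different genes were set in order per kilobase of the longest coding transcript. S100a10 was highest, at 2376 ± 588 normalised counts per kilobase in control livers (SD, n = 6) and 1861 ± 542 in 4-HPAA livers. Its range lay above that of Anxa6 in control livers but overlapped that of Anxa5 there, and it overlapped that of Anxa6 in 4-HPAA livers. Anxa6 (1284 ± 129 in control), Anxa5 (1260.5 ± 371) and Anxa7 (1140 ± 98.6) followed with overlapping ranges, so their order is not resolved. Anxa4 came next at 730 ± 30.6, apart from Anxa7 in both groups. Anxa4, Anxa2 (395 ± 217), S100a11 (260.3 ± 86.4) and Anxa11 (187 ± 19.3) each overlapped with the next in control livers, and Anxa11 was apart from Anxa1. Anxa1 (73.4 ± 12.7) and Anxa3 (60.8 ± 9.02) were lowest and overlapped with each other. In 4-HPAA livers Anxa11, at 207 ± 22.7, stood above Anxa2, at 189 ± 73.1, and S100a11, at 162 ± 64.3, with overlapping ranges. S100a10 stayed highest with coding lengths and with all exons joined, and Anxa5 was highest with the lengths of the deposited transcript IDs, while the order of Anxa5, Anxa6 and Anxa7 depended on the length used.

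**Figure D4:**
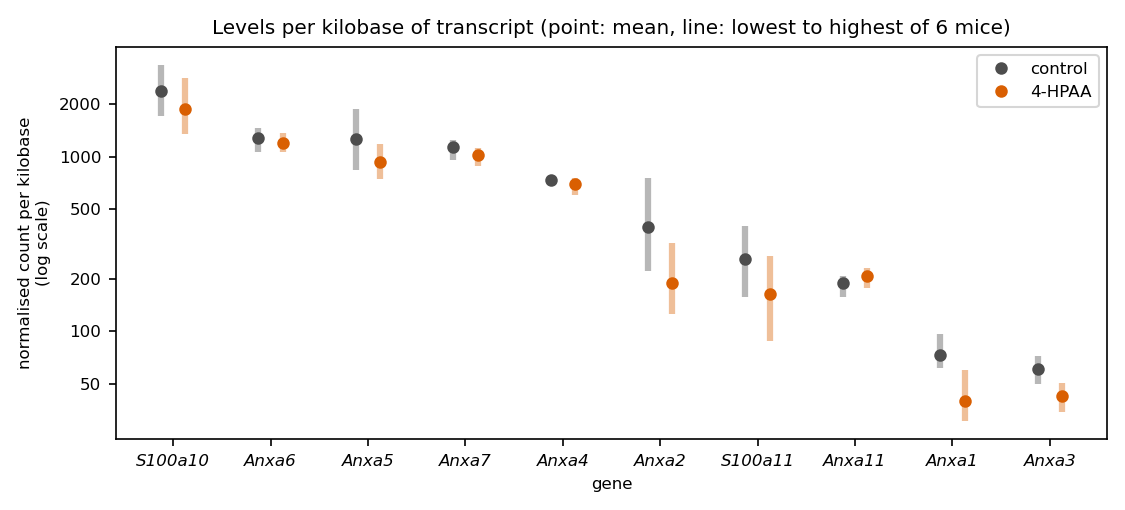
Normalised read counts per kilobase of transcript (logarithmic vertical axis) for the 10 genes in order of their control mean, with points for group means and lines from the lowest to the highest of 6 mice. S100a10 leads at 2376 in control livers and Anxa1 and Anxa3 close the order at 73.4 and 60.8.

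Other genes of these families and their partners were taken from fixed lists. Of 14 further S100 genes, 6 were tested, and 5 of these had a negative difference. At an unadjusted p under 0.05 there were 3 lower and 0 higher, and 0 passed after adjustment over all genes (limma). Over all genes tested, 50.2% had a negative difference, and 7.56% were lower and 7.26% higher at that threshold. The lists were made with earlier results of these data known, so nothing is read from these counts. S100a6, the partner of annexin A11, ran from 37 through 65.5 to 95 in control livers and from 30 through 36.5 to 40 in 4-HPAA livers, a log2 difference of −0.77 ± 0.24 (SE). S100a4, a marker of motile mesenchymal and myeloid cells, lay at 7 to 26 and 2 to 11, at the edge of what these counts resolve. S100a1, a calcium sensor of muscle, differed by −0.23 ± 0.10, and S100a13, a carrier in unconventional secretion, by −0.19 ± 0.13. The alarmins of neutrophils S100a8 and S100a9 lay at 4 to 29 and 4 to 49 in control livers and at 2 to 19 and 6 to 41 in 4-HPAA livers. Of 4 further annexins, Anxa8 and Anxa9 were tested, both with negative differences, −0.83 ± 0.32 and −0.27 ± 0.19, at levels of 8 to 53 over all mice.

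Among 17 partners of annexins, 15 were tested, 10 with negative and 5 with positive differences and a median of −0.11. At an unadjusted p under 0.05 there were 3 lower and 1 higher, against 7.56% and 7.26% of all genes tested, and 0 passed after adjustment (limma). Nothing is read from these counts either. The genes of plasminogen activation, which the annexin A2 complex gathers at the cell surface, went different ways. Plg, the plasminogen gene of hepatocytes, ran from 46866 through 57439.5 to 61231 in control livers and from 54071 through 71464.0 to 75960 in 4-HPAA livers, a log2 difference of 0.29 ± 0.10 (SE), with 5 of 6 4-HPAA mice above the highest control. Its activators Plat and Plau, at low values of 11 to 36 and 44 to 69 in control livers, lay at 3 to 17 and 23 to 48 in 4-HPAA livers. Ahnak, a giant scaffold protein that binds the annexin A2 and S100A10 complex, ran from 485 through 545.5 to 651 and from 383 through 462.5 to 484. Its log2 difference was −0.28 ± 0.08 (SE), and its groups did not overlap, as for 0.354% of all genes tested in that direction. Pdcd6, which encodes ALG-2, differed by −0.15 ± 0.07 and Sri, which encodes sorcin, by 0.12 ± 0.07. The annexin A1 receptors Fpr1 and Fpr2 lay at 11 to 81 and 2 to 54 in control livers and at 15 to 48 and 4 to 17 in 4-HPAA livers. The log2 difference of Fpr1 was 0.10 ± 0.46 (SE), and Fpr2 was under the limit for testing.

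Markers of other liver cell types were summed in the same livers, with control given before 4-HPAA. Counts of negative differences stand beside 50.2% of all genes tested. The 9 stellate and fibroblast markers summed to 6892 to 10667 in control livers and 4222 to 8270 in 4-HPAA livers, with 9 of 9 differences negative. The 4 mesothelial markers summed to 154 to 479 and 57 to 149, with 4 of 4 negative. Only the sums did not overlap between the groups, at 154 against 149. Taken singly, 0 of the 4 genes had every 4-HPAA mouse below every control mouse, against 0.354% of all genes tested. The 10 macrophage markers summed to 2360 to 10038 and 3393 to 5533, with 7 of 10 negative. The 8 endothelial markers summed to 4489 to 5389 and 4048 to 5452, with 7 of 8 negative. Of 8 duct cell (cholangiocyte) markers, 6 were tested, with 3 negative and sums of 1369 to 2181 and 1503 to 2356. Of 6 adipocyte markers Cfd, Fabp4 and Cidec were measured, and Adipoq, Plin1 and Lep were not. The 3 measured summed to 630 to 3218 and 283 to 916, all negative. Cidec, at 1739 and 1943, was the largest part of the sum in control replicates 4 and 5. Without Adipoq, Plin1 and Lep this sum cannot be read as a measure of adipocytes. Of the 9 hepatocyte markers 4 were negative and 5 positive. The 3 B cell markers summed to 25 to 108 and 25 to 50, with 3 of 3 negative. The 3 T and NK cell markers measured summed to 30 to 85 and 62 to 190, a sum carried by Cd4, with a log2 difference of 1.69 ± 0.41 (SE), while Cd3e and Cd3g had means under 10 in both groups and were not tested. The 3 erythroid markers summed to 1940 to 3083 and 2159 to 3318, with 2 of 3 negative, since Alas2 makes up most of the sum and Hba-a1 and Hbb-bt were the negative ones. Of 8 neutrophil markers 1 was measured, at 17 to 81 and 27 to 56. None of the markers measured was at 0, since the table holds no value under 2. The part of these cell types in the differences of Anxa1, Anxa2 and the other members was not tested.

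The same mice can be compared by marker sum. Control replicate 6 had the highest macrophage sum, 10038, and was the lowest control for 6 of 10 members, while control replicate 5, at 6071, was the highest for 4. Among 4-HPAA mice, replicate 4 had the highest stellate sum, 8270, and was the highest for 5 of 10 members, Anxa1 and S100a11 among them. Replicate 3 had the lowest stellate sum of all 12 mice, 4222, and was the highest 4-HPAA mouse for 3 members, Anxa2 and S100a10 among them. That sum is weighted to the markers of highest count. By the mean log2 deviation of the 9 markers from their control means, replicates 1 and 2 lay below replicate 3 (−0.90, −0.82 and −0.78). Replicate 4 stayed the highest 4-HPAA mouse by that measure, at 0.01. The estimated reads were fewest in 4-HPAA replicates 1 and 2 (22388924 and 23359777), the mice with least Anxa2, at 185 and 182, and most in control replicate 5 (26929205), the mouse with most. Scaled to the library total, the log2 difference of Anxa2 was −1.01 and that of Anxa1 −0.92. These totals are of values already scaled and do not follow the reads. The total was 25255413 in 4-HPAA replicate 1 and lowest, at 22869813, in control replicate 5. Scaling to them is therefore no test of depth, and the part of depth in the differences was not tested.

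**Figure D5:**
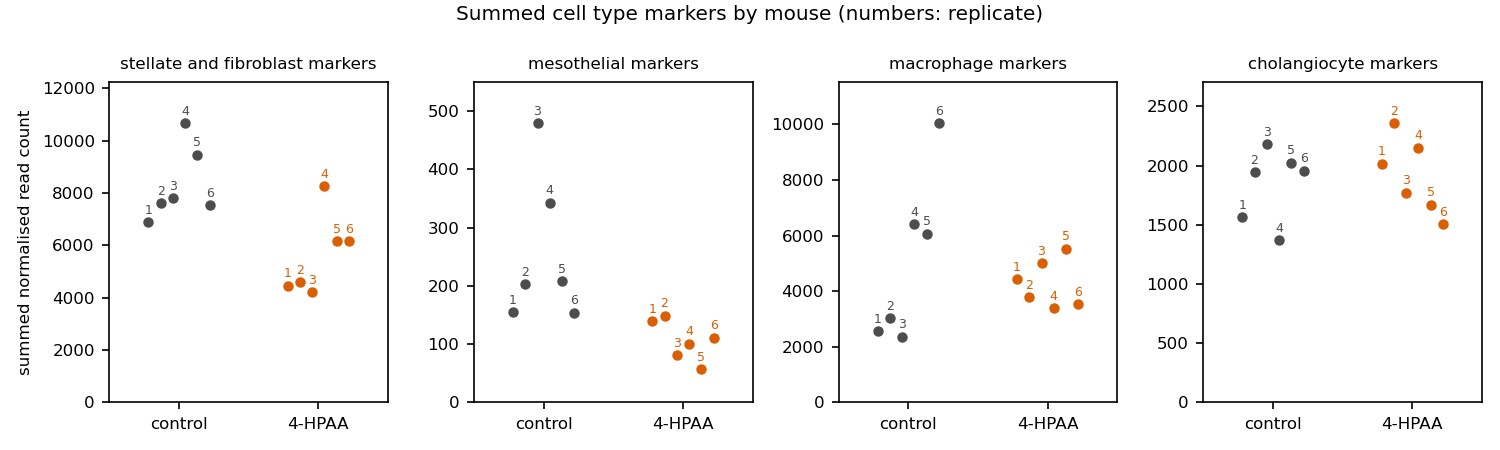
Summed normalised read counts (vertical axes, linear from 0) of the stellate and fibroblast, mesothelial, macrophage and cholangiocyte markers in each mouse, numbered by replicate. The mesothelial sums of 4-HPAA mice, 57 to 149, all sit below those of control mice, 154 to 479, though each of the 4 genes overlapped between the groups. Control replicate 6 stands highest for macrophage markers at 10038.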

How the data were processed

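Directional TruSeq mRNA libraries from 12 livers were read on a NovaSeq, per the labels' protocols. The submitters' processing notes list GRCm38, edgeR, DESeq2 1.28.1, HTSeq, STAR, cutadapt and FastQC 0.11.9, without roles. No source used here gives the annotation or the strand setting. Values in the deposited table were handled as a score: the authors' read counts, apparently divided by a factor per library (inferred 0.887 to 1.18) and rounded. This was read from the values, since 5 libraries lack some whole numbers between 4 and 44. No count model was used. Each gene stands under 1 Ensembl transcript ID, and 13200 of 13267 matched in GENCODE M21. Of these, 5633 IDs are of noncoding transcripts, so values were read as totals per gene, and lengths are those of the longest coding transcript, not of the deposited ID as planned.

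The log2(value + 1) of the 12720 genes reaching 10 in 6 or more libraries was fitted with limma 3.58.1 (R 4.3.3, eBayes with a trend and robust), with Benjamini-Hochberg adjustment at 0.05. This scale understates the change of low genes. Tested on simulated data of this comparison (12640 genes, 200 changed), the fit recovered 94% of genes changed 2-fold and 100% changed 4-fold, with 4.9% false calls. The simulated noise was independent between genes, and no gene of low level was changed. The real libraries share variation, with 31.5% and 20.6% on the first 2 principal components. The simulation therefore does not show how often a 2-fold change would be found in these livers. Partner correlations used 100000 permutations within groups and adjustment over 5 pairs. All 30 pairs of libraries within groups differed by more than sampling noise (chi-square per gene 17.86 to 119.32). Other genes were named by a rule: the 5 of largest difference with a mean of at least 100 among other annexins, S100 genes and partners, 12 genes of interest, and the 5 most like Anxa2. Anxa8, Anxa9, Plau, Rasa1, the mesothelial genes and the mice singled out were named after their values were seen. The members and lists were chosen with earlier results of these data known. Protein features were planned and not run. The alternatives were other pseudocounts, filters, scalings, weights and lengths, a replicate block and each library left out.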

Additional observations from a re-analysis of the deposited data

Results flagged for a closer look

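No member had a mouse far from the other 5 of its group. Among the 70 groups examined (35 genes, members and partners, in control and 4-HPAA), 2 held such a mouse, where chance flags about 1 in 20. Rasa1, a GTPase-activating protein that annexin A6 recruits to membranes, was at 185 in 4-HPAA replicate 3 while the other 4-HPAA mice lay between 424 and 571. Ahnak was at 383 in 4-HPAA replicate 5 while the others lay between 445 and 484.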

How the results depend on the processing

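The signs of the 10 members' differences held under all 20 alternatives fitted (19 for S100a11, which the filter of at least 50 in all libraries removes), and no difference moved by more than the spread between mice. The count of genes called was 0, but 139 with array weights, and 0 to 193 with 1 library left out (193 without 4-HPAA replicate 4, 5 without control replicate 1). Members called numbered 1, Anxa1, with array weights and 0 to 1 with 1 library left out, and those lower at an unadjusted p under 0.05 numbered 3 to 7. Scaled to library totals, Anxa1 with S100a11 (r = 0.676, permutation adjusted p = 0.0423) and Anxa6 with S100a11 (r = 0.637, adjusted p = 0.0441) passed, as did the latter with quantile normalization (r = 0.695, adjusted p = 0.0299, permutation test). With 1 library left out, r ranged from 0.396 to 0.711 for Anxa1 with S100a11, from 0.885 to 0.939 for Anxa2 with S100a10 and from 0.776 to 0.882 for Anxa2 with S100a11. The cause was not tested. Scaling to totals also moved the split of all genes at an unadjusted p under 0.05 from 962 lower and 924 higher to 1116 and 671. Those counts were 590 and 835 with a value of at least 50 in all libraries and 1447 and 1603 with array weights.

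The labels do not say that replicate numbers pair the mice. The correlation of same-numbered mice ran from −0.183 to 0.282, and 3 of 6 control mice correlated best with their own number, so these values do not settle it. With the replicate number as a block, 11 genes were called, 1 of them a member (Anxa1). The r of Anxa2 with S100a10 was 0.869 (exact permutation adjusted p = 0.132) and that with S100a11 0.546 (adjusted p = 0.398, exact permutation), over 6 differences in place of 12 mice.

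The level per kilobase of every member moved beyond its SD with at least 1 other length. Depth limits most the members of lowest count, Anxa1, Anxa3 and S100a11.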

Other observations

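Mesothelial genes, which mark the cells that cover the liver's surface, were measured in the same livers and are named after their values were seen. Upk3b, a uroplakin, averaged 113 ± 51.9 in control and 49.8 ± 14.2 in 4-HPAA livers (SD, n = 6 each), and Msln, mesothelin, 95.7 ± 63.3 and 37.0 ± 16.9. The values of Msln were highest in control replicates 3 and 4, at 205 and 141, and those of Anxa2 in control replicates 4 and 5. Control replicate 4 was thus among the highest for both, but control replicate 5, with most Anxa2, had 59 of Msln. Among 4-HPAA mice, replicate 3 had most Anxa2 and 22 of Msln. Replicates 1 and 2, with least Anxa2, had most Msln there, at 59 and 55. The relation of these genes across mice was not tested. Lrrn4 lay at 13 to 40 in control and 4 to 20 in 4-HPAA livers, and Wt1, a transcription factor of the mesothelium, averaged 21.3 ± 10.6 and 9.17 ± 4.45.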
